A study of Danio rerio with 6 samples.

Results

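The data were RNA-seq profiles of retina from 3 wild-type zebrafish (Danio rerio), all adult males of 3 months. The fish were offspring of an intercross of heterozygotes for the stl888 allele of samd7, a gene for a photoreceptor protein. They were genotyped as adults, and the 2 retinas of a fish made up its library. The libraries, called wild type 1, 2 and 3 here, were 3 of the 6 libraries of the series, and the libraries of the homozygous mutants were not used. Genes were included where the normalised read count, the reads of a gene over its library's size factor, was at least 10 in all 3 libraries. This floor left 10739 of the 14781 genes in the table, and they held at least 99.9% of the reads in genes. The floor lay between 0.382 and 0.392 CPM, the read count scaled to the library total. Another 1350 genes of the table were listed at 0 in all 3 libraries.

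The vertebrate retina turns light into nerve signals in rods and cones. Rods hold rhodopsin and serve dim light, and cones hold opsins tuned to different colours and serve daylight. In both, an activated opsin switches on the G protein transducin, transducin switches on a phosphodiesterase that breaks down cGMP, and arrestin, opsin kinase and calcium sensors end the response. Bipolar, horizontal and amacrine cells pass the signal to retinal ganglion cells, and Müller glia support them all. Ancestors of teleost fish duplicated their whole genome, so many zebrafish genes come as a pair of copies named a and b, which can come to be used in different cells.

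The libraries held 29117026, 22529193 and 22777234 reads in genes. Wild type 1 stood apart from the other libraries. Across genes, which do not count as replicates, the Pearson correlation of log2 values was 0.966 between wild type 1 and 2, 0.962 between 1 and 3 and 0.979 between 2 and 3. Of the genes past the floor, 1726, or 16.1%, differed at least 2-fold between the highest and the lowest library. That count was 632 without wild type 1, 1079 without wild type 2 and 1077 without wild type 3, each over 2 libraries in place of 3. Shares below are percentages of the reads in genes. They were not corrected for transcript length, so a larger share of reads is not a higher level per transcript, whereas the same gene or ratio can be compared between fish. A bulk share also does not count cells: fewer cells of a type and less RNA per cell cannot be told apart.

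The reads of the retina were led by genes of photoreceptors. The marker of rods, rho, which encodes rhodopsin, took 5.58%, 7.60% and 8.98% of the reads in wild type 1, 2 and 3 and was the first gene in each fish. The marker of blue cones, opn1sw2, which encodes the blue cone opsin, took 0.800%, 1.05% and 1.26%. Both were lowest in wild type 1 and highest in wild type 3. The marker of all cones, gnat2, the cone transducin alpha subunit, took 1.13%, 0.855% and 0.856% and was highest in wild type 1. These markers ranked 1, 6 and 7 among all genes by mean reads, so the labelled tissue carried its defining markers.

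Behind rho came pde6h, the inhibitory gamma subunit of the cone phosphodiesterase, at 2.05%, 4.49% and 3.98%. The brain-type creatine kinase ckbb, which buffers ATP, came next at 3.42%, 2.62% and 2.23%. It was followed by the retinol-binding protein gene rbp4l at 2.91%, 2.95% and 1.51%. Of these, pde6h was lowest in wild type 1, ckbb highest there, and rbp4l lowest in wild type 3. The rod transducin alpha gene gnat1 followed at 1.45% ± 0.349 (SD, n = 3). Next after the markers came gnb3b, a cone transducin beta subunit, at 0.804% ± 0.110, and the cone arrestin arr3a at 0.730% ± 0.238.

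The remaining genes among the 20 with the most reads were 4 further cone opsins, 5 genes of metabolism and transport, es1 and ppdpfa. The UV opsin opn1sw1, the red opsins opn1lw2 and opn1lw1 and the green opsin opn1mw2 took 0.638%, 0.602%, 0.571% and 0.530% on average. The glutamine synthetase of Müller glia, glula, and the glycolytic genes gapdhs and aldocb lay between 0.590% and 0.599%. Their coefficients of variation (CV, the SD over the mean) between fish were 4.12%, 4.51% and 6.83%. The mitochondrial ATP carrier slc25a5, at 0.534%, had a CV of 3.39%, and the sodium pump subunit atp1a3b, at 0.488%, one of 9.87%. The shares of es1 and ppdpfa were 0.554% and 0.522%. The 3 smallest CVs among the 20 were those of slc25a5, glula and gapdhs, and the widest CV was that of opn1lw1, at 69.2%.

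**Figure D1:**
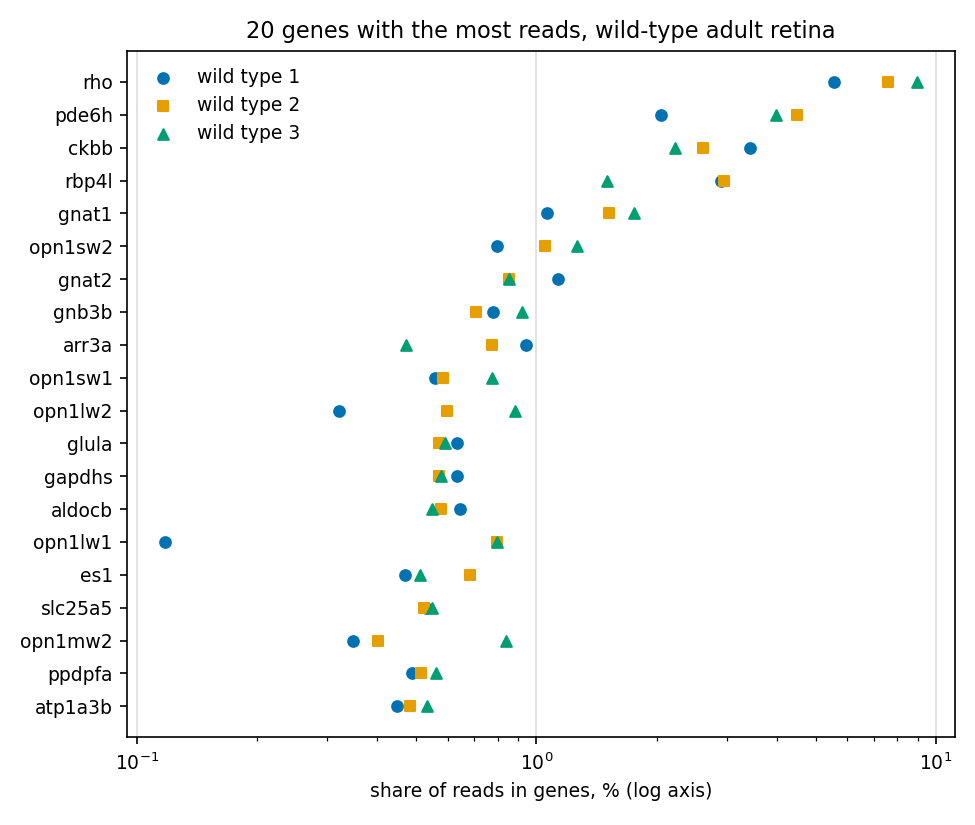
The 20 genes with the most reads by mean of the 3 wild-type fish; the x axis is each gene's share of the reads in genes in percent on a log axis, with 1 symbol per fish. The rho points lie between 5.58% and 8.98%, the glula, gapdhs and aldocb points nearly coincide, and the opn1lw1 point of wild type 1 lies far to the left of the others.

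The reads were concentrated in few genes. The 10 genes with the most reads in each library held 19.3%, 23.4% and 23.2% of its reads, and 8 genes were in that set in all 3 fish. The top 100 held 44.4% ± 1.93 (SD, n = 3), with 81 shared by all fish, and the top 1000 held 73.9% ± 0.480, with 824 shared.

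Genes of rod phototransduction took 8.62%, 11.3% and 13.1% of the reads, lowest in wild type 1. All 20 members in the table passed the floor, and 6 of them, or 30%, differed at least 2-fold between fish, beside 16.1% of all genes. Without rho the list held 3.62% on average. The normalised read counts of gnat1 were 271667, 396530 and 458615. Those of gnb1a, a rod transducin beta subunit, were 59367, 82739 and 111080. Both had the order of rho, lowest in wild type 1 and highest in wild type 3. The rod phosphodiesterase gamma copy pde6g held 66313, 73679 and 78341, a CV of 8.33%. Summed with its other copy zgc:112320, named pde6ga by RefSeq, it held 153866, 120671 and 117995, highest in wild type 1. The rod arrestin sagb held 58612, 80988 and 58562, highest in wild type 2. Its copy saga held 42784, 36054 and 24861, highest in wild type 1. In wild type 1, 2 of the 20 members lay at least 2-fold above both other fish, beside 1.90% of all genes. Another 2 lay at least 2-fold below both, beside 3.09% of all genes. A paralog of rhodopsin, rhol, held 3229, 10997 and 17921, and took at most 0.757% of the reads of rho and rhol together.

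Genes of cone phototransduction other than the opsins took a steadier share, 7.98%, 8.79% and 8.07%, of which pde6h was the largest piece. The steady sum covered members that differed in opposite directions. Of the 23 members past the floor 10, or 43.5%, differed at least 2-fold between fish, beside 16.1% of all genes. The catalytic subunit of the cone phosphodiesterase, pde6c, held 152927, 44035 and 67099, the cone arrestin arr3b 129675, 49336 and 40625, and the cone opsin kinase grk7a 90238, 32114 and 22068. These 3 genes were highest in wild type 1, where pde6h was lowest. Without pde6h the list held 4.78% on average, and 5.94% in wild type 1. The calcium sensor rcv1, a recoverin named rcvrn2 by RefSeq, held 78850, 124510 and 99127 and was lowest in wild type 1.

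The cone opsins took 2.33%, 4.02% and 5.16% of the reads, and 6 of the 8 genes, or 75%, differed at least 2-fold between fish, beside 16.1% of all genes. The short-wave opsins opn1sw2 and opn1sw1 spread least, with CVs of 23.5% and 19.5%. Among the red opsins, opn1lw1 held 30002, 207990 and 208775, and opn1lw2 held 81833, 156394 and 231815. The share of opn1lw1 in the reads of both was 26.8%, 57.1% and 47.4%, so the copy with more reads was opn1lw2 in wild type 1 and 3 and opn1lw1 in wild type 2. Among the 4 green opsins, opn1mw2 took 64.8%, 40.7% and 58.5% and opn1mw3 took 30.2%, 46.2% and 32.2%. The 4th green copy, opn1mw4, took 4.75%, 12.9% and 9.08%, and opn1mw1 at most 0.280%. Every red and green opsin had its lowest count in wild type 1. The tandem red and green copies are close in sequence, and how the authors' counting split reads between them was not tested.

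Ratios of rod to cone reads for the same function did not move together between fish. For the visual pigments, rho over all cone opsins, the ratio was 2.39, 1.89 and 1.74, highest in wild type 1. For the transducin alpha subunits, gnat1 over gnat2, it was 0.941, 1.78 and 2.05, lowest in wild type 1. The beta subunits gave 0.500, 0.786 and 0.801, and the gamma subunits 0.141, 0.369 and 0.360 in normalised read counts summed over copies. In wild type 1 the ratio was thus the highest of the 3 fish by summed pigments and the lowest by transducin. The lead of wild type 1 in the pigments depended on the sum. With the highest copy of each side, rho over opn1sw2, the ratio was nearly equal between fish, at 6.97, 7.23 and 7.12. That of the transducin subunits stayed lowest in wild type 1. The catalytic phosphodiesterase ratio, with pde6a alone on the rod side, was 0.153, 0.711 and 0.538, and that of its gamma subunits 0.295, 0.103 and 0.113. The cone side of the gamma ratio was pde6h alone, since its copy zgc:73359 (pde6hb in RefSeq) was listed at 0 in all fish. Arrestins gave 0.274, 0.464 and 0.509 and opsin kinases 0.0743, 0.155 and 0.196. Summed over copies, wild type 1 had the lowest ratio for 6 of the 8 functions. It had the highest for the pigments and the phosphodiesterase gamma subunits. Reads that cells other than rods and cones gave to these genes, such as those of the beta subunits, were not separated.

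The make-up of the calcium sensors of phototransduction also differed between fish. Guanylate cyclase activators restore cGMP after light by switching on its synthesis. Among the 6 in the table guca1c led in every fish, with 67.9%, 60.7% and 60.2% of their reads. The share of guca1a, named guca1aa by RefSeq, was 17.9% in wild type 1 against 3.76% in wild type 2, with counts of 22476, 2821 and 2185 in wild type 1, 2 and 3. That of guca1e, named guca1ab.1 by RefSeq, was 0.0397%, 5.03% and 6.68%. Wild type 1 was thus high in guca1a and nearly without guca1e, which held 49.9, 3780 and 3648 normalised read counts. Among 3 recoverins, rcv1 took 60.7%, 78.1% and 85.3%, and zgc:73075, named rcvrn3 by RefSeq, took 37.3%, 19.4% and 11.1%.

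Transcription factors of photoreceptors took 0.565% ± 0.116 of the reads. The proneural factor neurod1 was the largest of them, at 40181, 29103 and 101758, highest in wild type 3. The photoreceptor homeobox factor crx held 26726, 33010 and 29070, a CV of 10.7%, and samd7 held 4196, 4557 and 5186, one of 10.8%. Of the 24 factors past the floor, 7, or 29.2%, differed at least 2-fold, beside 16.1% of all genes, among them nr2f6b at 3624, 18826 and 9627 and six7, a factor of cones, at 6627, 8006 and 2433. Outer segment and cilium genes took 1.51% ± 0.199, led by irbp (rbp3 in RefSeq), which carries retinoids between cells, at 68338, 69270 and 119630.

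Each list of genes of inner retinal neurons took under 1% of the reads. Bipolar cell genes took 0.660%, 0.461% and 0.527%, led by the calcium-binding protein gene cabp5a at 79234, 39177 and 59476. Without cabp5a the list held 0.349%, 0.311% and 0.300%. The bipolar transcription factor vsx1 held 7197, 8933 and 7720. Amacrine cell genes took 0.531%, 0.391% and 0.367%, highest in wild type 1, and their largest members were genes of GABA transport and synthesis. The GABA transporter slc6a1b held 26222, 21270 and 16768, and the glutamate decarboxylase gad1b 23924, 19358 and 15427. Of the 21 amacrine genes past the floor 2 differed at least 2-fold, or 9.52% beside 16.1% of all genes. This share was 14.3% for bipolar cell genes (3 of 21) and 14.3% for horizontal cell genes (2 of 14). It was 37.5% for the genes listed for retinal ganglion cells (9 of 24). Over all genes it was 12.4% for mean counts of 100 to 1000 and 9.95% from 1000 to 10000. The median count was 3205 in the amacrine, 3364 in the bipolar, 898 in the horizontal and 598 in the ganglion cell list.

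Genes listed for retinal ganglion cells took 0.514%, 0.452% and 0.444%, but inaa, an intermediate filament gene of neurons, was more than the rest together in each fish. Without inaa the list held 0.249%, 0.173% and 0.189%. The RNA-binding protein gene rbpms2b held 5680, 3773 and 4893 and isl2b, a ganglion cell homeobox factor, 1656, 882 and 1685. The axon growth gene gap43 was listed at 0 in all fish. The horizontal cell list took the least of the neuron lists, 0.107%, 0.106% and 0.0891%, and such sums depend on which genes each list holds. More than the rest of that list together was ompa, the olfactory marker protein gene, at 15867, 15074 and 11702, while its copy ompb was listed at 0.

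Müller glia genes took 1.27% ± 0.0603 of the reads (SD, n = 3), with a highest to lowest ratio of 1.09 that was smaller than for any other list. Glutamine synthetase, glula, which turns the transmitter glutamate into glutamine, held 161694, 148958 and 154478. The lipid carrier apoeb held 57657, 67306 and 62517, and the glutamate transporter slc1a2b 17993, 15944 and 17214. For these genes the 3 fish lay within 1.17-fold of each other. Of the 20 glial genes past the floor 2, or 10%, differed at least 2-fold, beside 16.1% of all genes. They were fabp7a at 5286, 5376 and 11377 and slc1a2a at 7443, 3687 and 2511. The median count of the glial genes was 3193, and of all genes with means of 1000 to 10000, 9.95% differed at least 2-fold. The median CV was 12.7% for the glial genes, 10.5% for all genes at those means and 11.8% for bipolar cell genes.

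Glycolysis genes and creatine kinases took 6.69%, 5.49% and 5.14%, of which ckbb was 2.75% on average. The glycolytic enzyme eno1a, an enolase, held 53470, 53294 and 52042, a CV of 1.47%, and lactate dehydrogenase ldhba 61272, 57214 and 60790, a CV of 3.71%. The mitochondrial creatine kinase ckmt2a held 108827, 92870 and 93109. Genes of synaptic ribbons and vesicles took 1.07% ± 0.0990, led by snap25b, a fusion protein of vesicles, at 71776, 68142 and 74154.

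**Figure D2:**
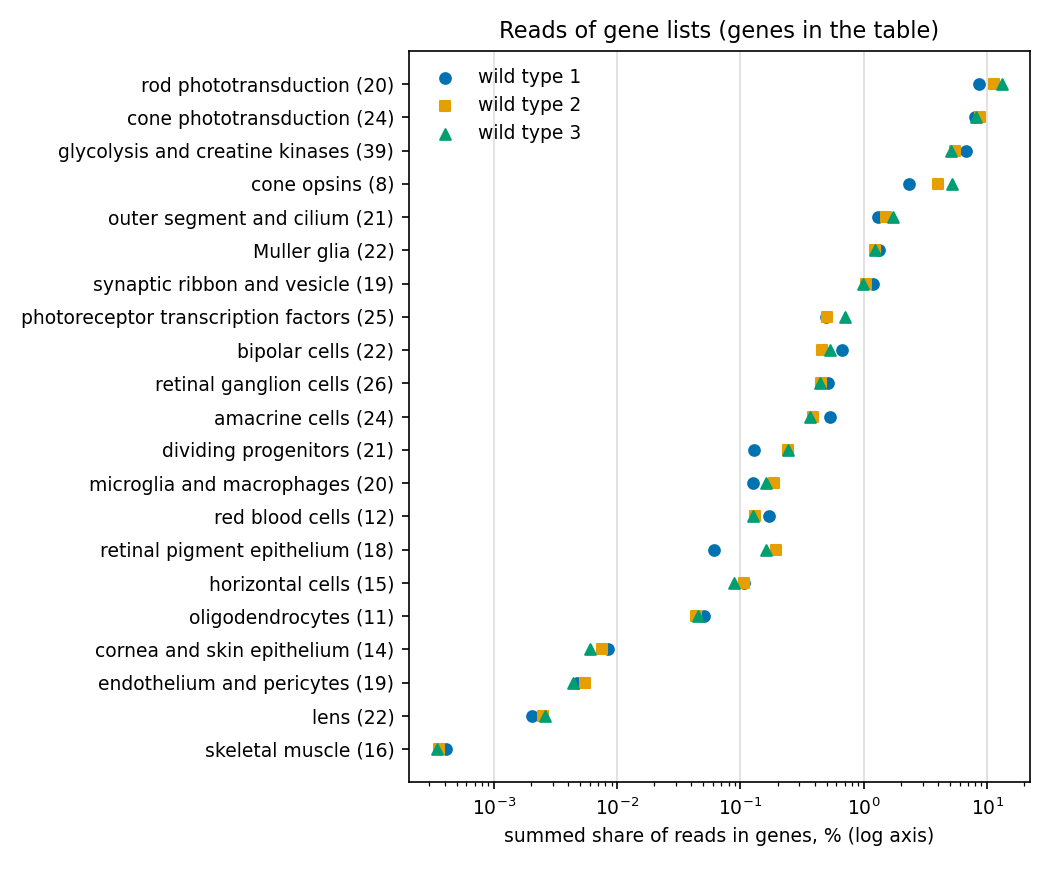
Summed reads of gene lists for cell classes and functions in 3 wild-type fish; the x axis is the share of the reads in genes in percent on a log axis, and the number of list members in the table is in parentheses. Photoreceptor lists reach 13.1%, and inner retinal neuron lists stay under 1%. The points of wild type 1 lie left of the others for several lists, such as the retinal pigment epithelium, the cone opsins, the dividing progenitors and rod phototransduction.

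Genes of neighbouring tissues were present at low levels, and they differed between the fish. Retinal pigment epithelium genes, from the sheet behind the photoreceptors, took 0.0610%, 0.196% and 0.161%, lowest in wild type 1. Of the 12 past the floor, 9, or 75%, differed at least 2-fold between fish, beside 16.1% of all genes, and 6, or 50%, lay at least 2-fold below both other fish in wild type 1, beside 3.09% of all genes. The isomerase rpe65a, which regenerates visual chromophore, held 1867, 5968 and 3036, and the retinol receptor stra6 held 1041, 10428 and 7515. The amount of pigment epithelium left on each retina was not measured, and the part of this tissue in other differences between the fish was not tested.

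Microglia and macrophage genes took 0.125%, 0.186% and 0.162%, mostly hexb, a lysosomal enzyme. Without hexb the list held 0.0352%, 0.0587% and 0.0324%, highest in wild type 2 and lowest in wild type 3. Of the 15 past the floor 9, or 60%, differed at least 2-fold, beside 16.1% of all genes. Of the 15, 4 lay at least 2-fold above both others in wild type 2, beside 1.31% of all genes. The antigen presentation gene cd74a held 3479, 6678 and 2847, and the leukocyte actin-binding gene lcp1 held 327, 678 and 276. Wild type 2 was the highest fish for both. Oligodendrocyte genes, of the cells that make myelin, took 0.0465% ± 0.00338.

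Other tissues left little trace. The red blood cell list took 0.143%, but nearly all of it was cahz, a carbonic anhydrase that is also in the Müller glia list. Without cahz the list held 0.00422%, 0.00111% and 0.00239%, which was adult globin in the main. The alpha globin hbaa1 held 368, 129 and 209, the beta globin zgc:92880 (hbba2 in RefSeq) 298, 56.8 and 152, and the beta globin ba1l 235, 29.0 and 164. All 3 were highest in wild type 1 and lowest in wild type 2, while ba1 and ba2 were listed at 0. In RefSeq ba1 is a synonym of hbba1, and ba2 is one of both ba1l and hbba1. How the authors' counting split reads between the globin copies was not tested. Endothelium and pericyte genes took 0.00486%, with the pericyte gene pdgfrb and the endothelial factor sox17 listed at 0. Cornea and skin genes took 0.00731%, lens genes 0.00238% and skeletal muscle genes 0.000373%, and the muscle genes pvalb1 and pvalb2 were listed at 0. The list of dividing progenitors took 0.130%, 0.243% and 0.241%. Of its mean of 0.205%, 0.161% was rx1, a homeobox factor that photoreceptors also express. Without rx1 the list held 0.0429%, 0.0452% and 0.0440%. The replication clamp pcna held 3124, 2770 and 2178.

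For duplicated genes, the question was which copy took more of the reads. A pair was a name ending in a with its namesake ending in b. Of 1500 such names, 161 were left out because the names do not stand for duplicates, and 1206 pairs had a copy past the floor. Limma was fitted to the log2 ratio of the copies within each fish, with a pseudocount of 1 added to each value. A copy was called dominant where the adjusted p was under 0.05 and it was at least 2-fold higher in each of the 3 fish. That held for 752 pairs, or 62.4%, of which 426 (35.3%) were led by the a copy and 326 (27.0%) by the b copy. At 4-fold it held for 529 pairs (43.9%), and the median distance between copies was 4.28-fold. The ratios compare reads, not levels per length, so a longer transcript can lead a pair for that alone. The test alone was passed by 965 pairs (80.0%). By contrast, 222 pairs lay within 2-fold in every fish.

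Of the 85 tested pairs with a member in one of the lists, 57 were called, or 67.1%, beside 62.4% of all pairs. By class this was 16 of 27 pairs of photoreceptor lists and 17 of 25 of inner retinal neurons. It was 7 of 9 for Müller glia and 9 of 11 for glycolysis and creatine kinases. The photoreceptor lists here included that of synaptic ribbons and vesicles, with 5 of 5 pairs called. Their other lists gave 1 of 4 for rod and 2 of 5 for cone phototransduction. Outer segment and cilium gave 3 of 6 and transcription factors 5 of 7. Those 5 include otx1a with otx1b, although otx1a is named otx2a by RefSeq. The median distance between copies was 3.85-fold in the photoreceptor lists, 11.8-fold in the neuron lists, 76.6-fold in the glia list and 120-fold in the glycolysis list, beside 4.28-fold over all pairs. The lists were made with earlier results of these data known, and some name 1 copy of a pair only, such as fabp7a. The distance that a pair can reach also grows with its reads. The comparison with all pairs is thus no test of the classes.

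In energy metabolism one copy often took nearly every read. The creatine kinase ckba held 101, 130 and 91.9 normalised read counts, and its copy ckbb held 871090, 682947 and 582721. This was a log2 ratio of a over b of -12.68 (SE 0.184, limma adjusted p = 1.02e-05). For aldolase C, aldoca held 101, 75.3 and 99.9 and aldocb 164197, 150614 and 143664, a log2 ratio of -10.69 (SE 0.148, adjusted p = 1.01e-05). In both pairs every count of the b copy lay above every count of the a copy. For pyruvate kinase, pkmb held 5.25, 5.79 and 1.15 against 66906, 66996 and 78172 of pkma, and gpib was at most 2.63 against at least 21606 of gpia, a glucose phosphate isomerase. The enolase pair shared its reads more evenly: eno1a took 67.2%, 66.4% and 62.2%, which was under 2-fold in wild type 2 and 3 and was not called.

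The lists of glia, inner neurons and synapses also held lopsided pairs. In the glutamine synthetase pair glula took 98.6%, 98.4% and 99.0% of the reads (log2 ratio 6.26, SE 0.191, limma adjusted p = 4.94e-05). The apolipoprotein gene apoea was listed at 0, 1.16 and 1.15 against at least 57657 of apoeb. The bipolar cell gene cabp5a took 95.9%, 95.5% and 97.8% of its pair (log2 ratio 4.81, SE 0.254, adjusted p = 0.000147). In the ribbon synapse gene cplx4a, a complexin, the share was 91.7%, 92.5% and 95.1%, and for sypb, the vesicle protein synaptophysin, it was above 99% in every fish. Both copies of the eye field factor pax6 took part, with 48.5%, 44.7% and 47.7% from pax6a (adjusted p = 0.277). The membrane glycoprotein pair gpm6aa and gpm6ab was as even, at 52.1%, 49.6% and 49.2% from gpm6aa (adjusted p = 0.910).

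Photoreceptor pairs were mixed. In the cone transducin beta pair gnb3a held 2093, 3547 and 4115 against 198865, 184738 and 241512 of gnb3b, a log2 ratio of -6.05 (SE 0.214, limma adjusted p = 6.29e-05). The cone opsin kinase grk7a took 99.0%, 98.0% and 97.3% of its pair, and rom1b, a disc rim protein, had 47063, 65090 and 76081 against 2580, 3400 and 3928 of rom1a. The fatty acid elongase elovl4b led elovl4a, which took 5.90%, 3.89% and 3.93%. Other pairs used both copies. The rod transducin beta pair had 59.0%, 55.9% and 56.5% of its reads from gnb1a (log2 ratio 0.42, SE 0.122, adjusted p = 0.0309), past the test but under 2-fold. The adjusted p was 0.0717 for limma without trend, 0.151 without wild type 2 and 0.107 without wild type 3, so the test was lost there. The disc rim pair prph2a and prph2b had 57.2%, 55.4% and 54.4% from prph2a (adjusted p = 0.0589).

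Cone arrestin copies, which zebrafish use in different cone types, arr3a in red and green cones and arr3b in blue and UV cones, both took many reads. The share of arr3a was 64.9%, 80.4% and 75.2% (log2 ratio 1.51, SE 0.256, limma adjusted p = 0.00549). In wild type 1 the excess was under 2-fold, so the pair was not called. Rod arrestin reads came from saga at 42.2%, 30.8% and 29.8% (adjusted p = 0.0123), also without a call. That p was 0.0567 without wild type 2 and 0.0734 without wild type 3.

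**Figure D3:**
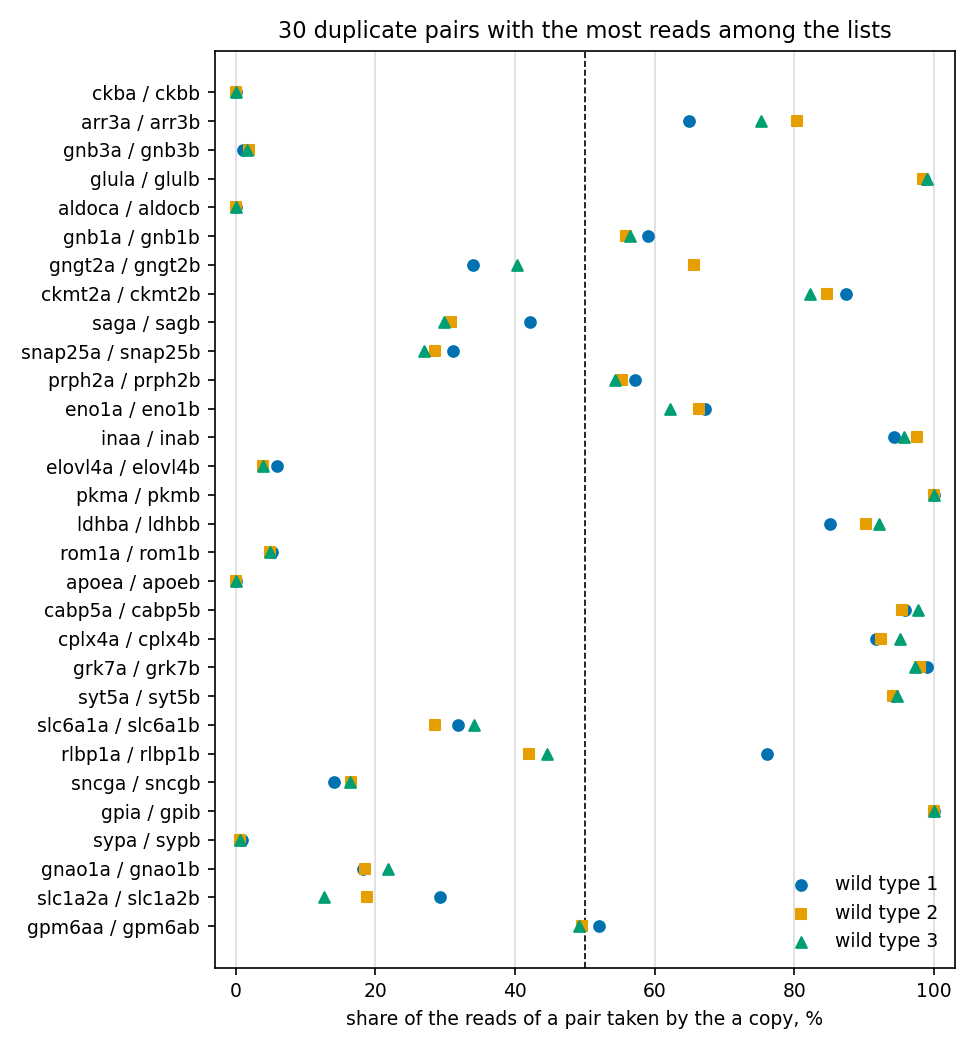
The 30 duplicate pairs with the most reads among the gene lists; the x axis is the share of the reads of a pair that the a copy took in percent, with 1 symbol per wild-type fish and a dashed line at equal reads. Of the 30 pairs 15 lie within 10 percentage points of 0% or 100% in all fish, and the symbols of rlbp1a, gngt2a, slc1a2a and arr3a are spread most.

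Outside the lists, the 10 pairs with the largest ratios and reads in both copies included nsfa, a factor that recycles vesicle fusion proteins, at 31904, 25265 and 25436 against 28.0, 19.7 and 45.9 of nsfb. The neuronal calcium sensor ncaldb held 154662, 74724 and 53195 against 603, 496 and 361 of ncalda, and the microtubule regulator stmn1b 61396, 38471 and 35270 against 221, 243 and 134 of stmn1a. The other pairs were mylip, nfkbia, sulf2, rnasek, diras1, ubtd1 and gns. All 10 were taken from the called pairs, so the rule of the call had fixed that the same copy led in all fish.

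The make-up of a pair can be compared between fish without transcript length. Of the 942 pairs with both copies past the floor, 269, or 28.6%, had a ratio that moved at least 2-fold between fish, and among pairs with a list member this held for 22 of 61. The retinaldehyde-binding pair rlbp1 had 76.1%, 42.0% and 44.5% of its reads from rlbp1a, the Müller glia copy, so rlbp1b, the pigment epithelium copy, led in wild type 2 and 3. The level of rlbp1a was close in all fish, 14788, 13586 and 12536, and that of rlbp1b was 4653, 18724 and 15608. The opsin kinase grk1a, of rods, took 67.2%, 41.4% and 33.6% of the pair with grk1b, of cones. The cone transducin gamma copy gngt2a took 34.1%, 65.7% and 40.3%, so that wild type 2 differed from both others. Outside the lists, samsn1a took 33.7%, 82.8% and 92.4% of its pair and impdh1a, an enzyme of GTP synthesis, 94.4%, 72.7% and 65.6%.

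Over all genes past the floor, the median CV between fish was 15.4%, and the counting of reads alone gave a median of 4.91%. The median CV was 28.3% for genes with a mean count of 10 to 100, 14.9% from 100 to 1000, 10.5% from 1000 to 10000 and 13.1% above 10000, where counting gave 0.766%. More reads thus brought smaller spread except among the most abundant genes. Of all genes, 204 (1.90%) lay at least 2-fold above both other fish in wild type 1 and 332 (3.09%) below. For wild type 2 these counts were 141 (1.31%) and 110 (1.02%), and for wild type 3 they were 83 (0.773%) and 113 (1.05%).

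**Figure D4:**
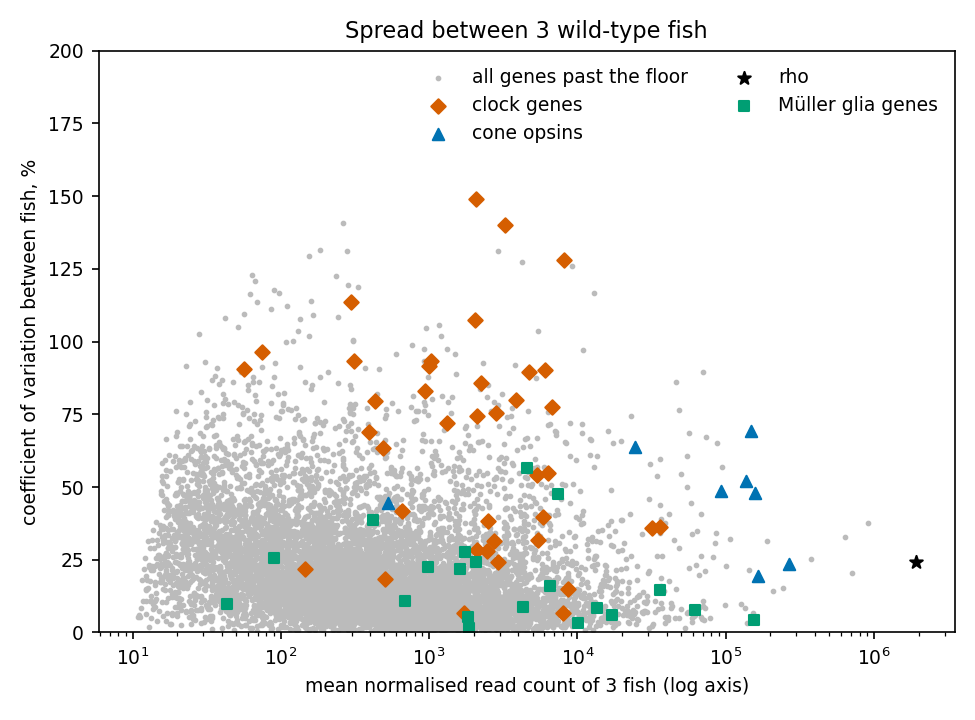
Coefficient of variation between 3 wild-type fish in percent against the mean normalised read count on a log axis, for the 10739 genes past the floor, with named groups in colour. Of the 39 clock genes 36 have a coefficient above the 15.4% median of all genes, and per2 and roraa lie low. All 8 cone opsins lie above that median, and the median of the Müller glia genes is 12.7%.

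The genes that differed most between fish, by the SD of the log2 value among genes with a mean of at least 100, were led by guca1e, described above. Then came nr1d1, a clock repressor, at 5588, 511 and 68.9, and arntl1b (bmal1b in RefSeq), a clock activator, at 168, 5432 and 8485. The clock output factor nfil3-5 held 344, 4084 and 19881. Wild type 1 was highest for nr1d1 and lowest for arntl1b and nfil3-5. The rest of the first 12 were dio3b, an enzyme that inactivates thyroid hormone, zgc:173594, the GABA receptor subunit gabrr3a, the clock genes bhlhe41, per1a and arntl1a, the interferon-induced isg15, and nfil3-3. Of the first 12, 7 were genes of the circadian clock or its output, and of the first 30, 12 were. These counts use the clock list described next, which holds 39 of the 10739 genes past the floor. It was drawn up after the values were seen, so the counts are no test.

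The list of 41 genes of the circadian clock was drawn up because clock genes were among the most variable. It was made after these values were seen, and it gets no test. The clock is a loop in which clock and bmal (arntl) proteins switch on period, cryptochrome and nr1d genes, whose products then hold the activators down, and its transcripts are known to follow the time of day. Of 39 clock genes past the floor, 28, or 71.8%, differed at least 2-fold between fish, beside 16.1% of all genes. All 6 activators were lowest in wild type 1 and highest in wild type 3, by 2.43-fold for clockb to 50.5-fold for arntl1b. The output factors were split, with 8 highest and 5 lowest in wild type 1. Those lowest were all 5 nfil3 genes. By contrast, dbpa held 1782, 774 and 252, tefa 8450, 4984 and 2689, and bhlhe41 8529, 898 and 355, each highest in wild type 1. Of the 11 period and cryptochrome genes 7 were highest and 4 lowest in wild type 1. The period gene per1b held 12507, 5112 and 2494. The cryptochrome genes cry2a (cry3a in RefSeq), at 403, 3651 and 4450, and cry2b (cry3b in RefSeq), at 308, 2867 and 3180, were lowest in wild type 1. So was cry4, at 352, 1359 and 2262. The list did not sort the cryptochrome genes by whether their products hold the activators down. Of the 9 nr1d and ror genes, the second loop of the clock, 4, or 44.4%, differed at least 2-fold. Of these 4, nr1d1 and nr1d2b were highest in wild type 1, and rorca and rorcb were lowest there. The levels of per2, which light induces in zebrafish, were close in all fish, at 1616, 1675 and 1833. The time of day at which each fish was taken is not given in the sources used here, and its part in the differences between the fish was not tested.

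**Figure D5:**
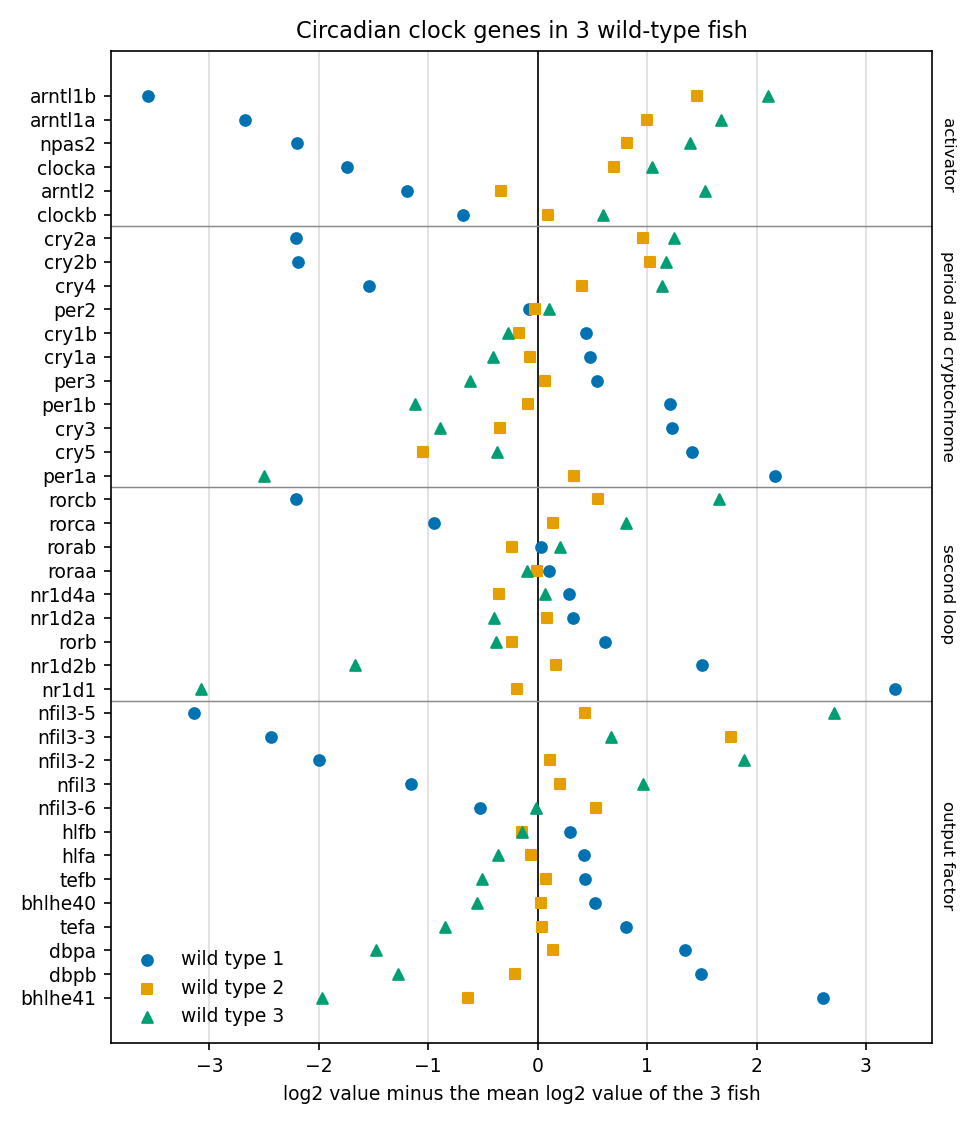
Levels of 39 circadian clock genes in 3 wild-type fish, as the log2 value of each fish minus the mean log2 value of the 3 fish, grouped by place in the clock. All 6 activators have wild type 1 farthest left and wild type 3 farthest right, and nr1d1, per1a and bhlhe41 have the reverse order.

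Among the variable genes, the interferon-induced isg15 held 63.9, 683 and 34.5. Chosen after their values were seen, irf1b, an interferon regulatory factor, held 46.4, 570 and 93.0, and zgc:123068, named ifi27.1 by RefSeq, held 56.9, 701 and 79.3. In each, wild type 2 was the highest fish, as it was for the microglia genes cd74a and lcp1. The vitamin A enzyme cyp27c1, which makes the red-shifted chromophore of fish, held 673, 10440 and 1598, also highest in wild type 2 and chosen in the same way.

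The most even genes, among those with a mean of at least 1000, had levels that nearly coincided in all fish. The kinase gene pdpk1b held 4584, 4596 and 4583, a CV of 0.153%, and the chaperonin subunit cct3 held 4545, 4560 and 4541, one of 0.213%. The others of the first 12 were myg1, pcnp, psma8, naa20, zgc:171772, lonrf1l, clgn, fkbp2, ndfip1 and siah1. They were picked as the smallest spread among many genes with 3 values each, and the counting error of their reads was larger than the spread observed.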

How the data were processed

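RNA was profiled by 150 bp paired-end sequencing. The labels' protocols give 10 ng of RNA as input to a SMARTer cDNA kit, amplified for 12 cycles, and 15 PCR cycles for the library. No molecular identifiers are named, so the counting errors given here cover the counting of reads only. Tools named in the submitters' processing notes are STAR 2.7.2b, HTSeq 0.9.1, Trim Galore 0.6.1 and DESeq2 1.34.0 under R 4.1.3, with build danRer10. The sources used here do not give the annotation version or the strand setting. The signal values that the authors deposited are read counts per gene divided by 1 size factor per library, and 100% of the wild-type values were whole reads within 0.01 reads. The log2 fold changes and p-values that the authors deposited, which compare mutant with wild type per the file headers, were not used.

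The members of the lists were chosen with earlier results of these data known. Of 505 list entries 418 were found in the table, 25 of them by a RefSeq synonym. Names are those of the table. Of them 12660 were current symbols and 1848 synonyms in RefSeq (GRCz12tu), and 11 looked like dates. Shares are of the total reads in genes. Pairs were tested with limma 3.58.1 (trend on abundance, robust) in R 4.3.3, with Benjamini-Hochberg adjustment over 1206 pairs. The method was tested on simulated data. The ratio per transcript length and a filter on protein identity had been planned, and were not used here because no lengths or protein sequences were at hand. Names that do not stand for duplicates were left out by hand from the names alone. A few pairs that were kept are not duplicates by current names. In RefSeq otx1a is otx2a and prox1b is prox3. Genes named were the markers, the 20 with the most reads, and up to 4 of each list with some of those at 0. Up to 30 list pairs and 10 others by ratio, and the 12 most and 12 least variable genes, were named too. A few more are named, as marked or as the largest examples of a described difference. With 1 group there was no comparison of groups. No pair of libraries was a copy, since chi-square per degree of freedom was at least 53.1. The fish are separate animals.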

Additional observations from a re-analysis of the deposited data

How the results depend on the processing

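Alternatives covered the floor, scaling, pseudocounts, filters and each fish left out. The count of genes past the floor kept within 1.5 times under those run. With rho removed, the top 10 and top 100 genes held 16.5% and 40.1% of reads, the rod list 3.91%, cone phototransduction 8.95%, Müller glia 1.37% and oligodendrocytes 0.0502%. With the highest paralog of each side in place of the sum, the mean rod to cone ratio was 7.11 for pigments. It was nearly equal between fish, whereas the summed ratio was highest in wild type 1. The ratio was 0.402 for transducin beta and 0.460 for gamma. With a floor of 50, 1030 genes differed at least 2-fold. Leaving out each fish gave 632 to 1079 such genes, a median CV of 9.82% to 13.7% (9.82% without replicate 1) and 745 to 794 dominant pairs. Of the 752 dominant pairs, edgeR 4.0.16 on the recovered reads kept 750, a pseudocount of 10 kept 731 and one of 0.1 kept 747. No call could turn to the other copy under these settings. An equal pseudocount does not change which copy is higher, and with edgeR the fold rule still used the ratios of the limma fit. Among 942 pairs with both copies past the floor 511 were called (54.2%), without a filter 778 of 1330, and among 1144 pairs of which both names are current symbols, an alternative chosen after seeing the data, 715 (62.5%). Without the fold rule 965 pairs passed the test. Settings per length and by protein identity were not run, for lack of lengths and sequences. No paired analysis was possible because there was 1 group, and each pair ratio was taken within a library. Depth limits genes near the floor, where counting alone gave a CV of 15.7% for means of 10 to 100.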
